A study of Mus musculus with 4 samples.

Results

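CN4 is a mouse neural stem cell (NSC) line that was derived and kept with a Wnt signal agonist, and it is described here across all genes with the XN4, XN1, and KN1 lines as the references. Its members are all cells of the normalized single-cell table of CN4, that is, 3448 of the 15255 cells in the tables of the 4 lines. All 4 lines were derived from epiblast stem cells (EpiSCs) of the 129/Sv strain, and each is 1 line in 1 library with no replicate culture. The study asked how the level of Wnt signaling during derivation relates to the regional character of the lines.

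The basic medium of all 4 lines contained EGF and FGF2 at 10 ng/ml each. To this, 2 µM CHIR99021 was added for CN4 and 10 µM XAV939 for XN4 and XN1, and neither was added for KN1. CHIR99021 inhibits the kinase GSK3, which marks beta-catenin for destruction, and so raises Wnt signaling. XAV939 inhibits tankyrase, stabilizes Axin, and so lowers it. The XAV939 used for XN4 and that used for XN1 came from different suppliers. The paper reports that the one used for XN1 formed crystals in the medium, and it takes the effective concentration to have been lower there. The cells were stored in a preservative before capture on BD Rhapsody beads.

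In the neural tube, position along the anteroposterior axis is marked by homeobox factors. *Otx* genes are active in the forebrain and midbrain, *Gbx2* behind the midbrain-hindbrain boundary, and *Hox* genes in the hindbrain and spinal cord, where genes of higher paralog number are active more posteriorly. Wnt signals promote posterior character, and cells that receive them switch on *Axin2*, *Nkd1*, and other genes that restrain the pathway. Position along the dorsoventral axis is marked by another set, among them *Pax3* and *Zic1* dorsally, *Dbx2* at intermediate levels, and *Olig2*, *Nkx2-2*, and *Shh* ventrally.

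A level is given here as the reads of a gene per 1000000 reads of the cells of a line (RPM), after the XN4, XN1, and KN1 values were multiplied by 1.033, 1.083, and 1.132 so that the median ratio to CN4 over the genes compared was 1. Without this step, that median was shifted by 0.046 in XN4, 0.115 in XN1, and 0.178 in KN1 on the log2 scale. The share of cells with a read was computed after each cell was thinned to 3200 reads, which left 3159 CN4, 3386 XN4, 3131 XN1, and 3396 KN1 cells. Intervals are exact 95% Poisson intervals for levels, the matching binomial ones for ratios, and exact binomial ones for shares. They cover counting error at most. Those for levels and ratios treat each read as a separate count, but reads are not molecules. A gene captured in a cell had a mean of 2.40 reads in CN4 and 7.39 in KN1. The intervals for levels and ratios are therefore likely too narrow, most of all against KN1. With 1 library per line, no comparison was tested, and a difference between 2 lines cannot be told apart from one between their libraries.

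The normalized tables held 19271688 to 41539513 reads per line, of which 22947874 were in CN4, and the median CN4 cell had 6572 reads and 2824 genes. The KN1 library stood apart, with a median of 833 genes per cell and a mean of 7.39 reads for each gene captured in a cell, against 2.40 in CN4, 2.14 in XN1, and 3.9 in XN4. Shares of cells are therefore lower in KN1 at the same level, and levels are used for the comparisons. The nuclear RNA *Malat1* was at 3278 RPM in CN4, 5735 in XN1, 14620 in XN4, and 36240 in KN1. The XN4 library had high connective tissue transcripts, with a summed level of 11420 RPM over 14 mesenchymal markers against 238 in CN4, 264 in XN1, and 40.8 in KN1, where 6 of the markers were not listed. The cells of the normalized CN4 table shared 14 to 20 cell barcodes with the table of each other line.

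For the label of CN4 as neural stem cells, 15 genes of neural stem cells were looked at, and all 15 had reads. Every measured marker of neurons, astrocytes, and mesenchyme had reads too, so this alone does not check the label. The transcription factor *Sox2* was captured in 73.2% of thinned CN4 cells, and the fatty acid binding protein of radial glia, *Fabp7*, in 97.9%. *Slc1a3*, a glutamate transporter of the same cells, was captured in 95.8%. The pluripotency gene list, by contrast, had a summed level of 10.5 RPM in CN4 over its 4 measured members, and the list of mesoderm and endoderm markers had 15.6 over 7.

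Of 10238 genes with a mean level of at least 10 RPM over the 4 lines, 1493 (14.6%) were at least 2-fold higher in CN4 than in XN4, and 1540 (15%) were at least 2-fold lower. Against XN1, 615 genes (6.01%) were higher and 904 (8.83%) lower. Against KN1, 1978 (19.3%) were higher and 2177 (21.3%) lower. The 1978 include genes not listed in KN1, which were set to the floor. With such genes left out, a setting chosen after seeing the data, 1836 were higher and 2177 lower. Without the scaling the counts were 1569 and 1464 against XN4, 751 and 775 against XN1, and 2427 and 1822 against KN1, so that the larger of the 2 counts depends on it against XN4 and KN1. The quartiles of the log2 ratio over these genes were -0.58 and 0.57 against XN4, -0.38 and 0.35 against XN1, and -0.84 and 0.77 against KN1. The spread of CN4 against XN1 was thus the smallest of the 3 comparisons. The share of the called genes that were higher moved by over 10 percentage points without the scaling only for genes past 2-fold against each of the other lines, as given next.

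**Figure D1:**
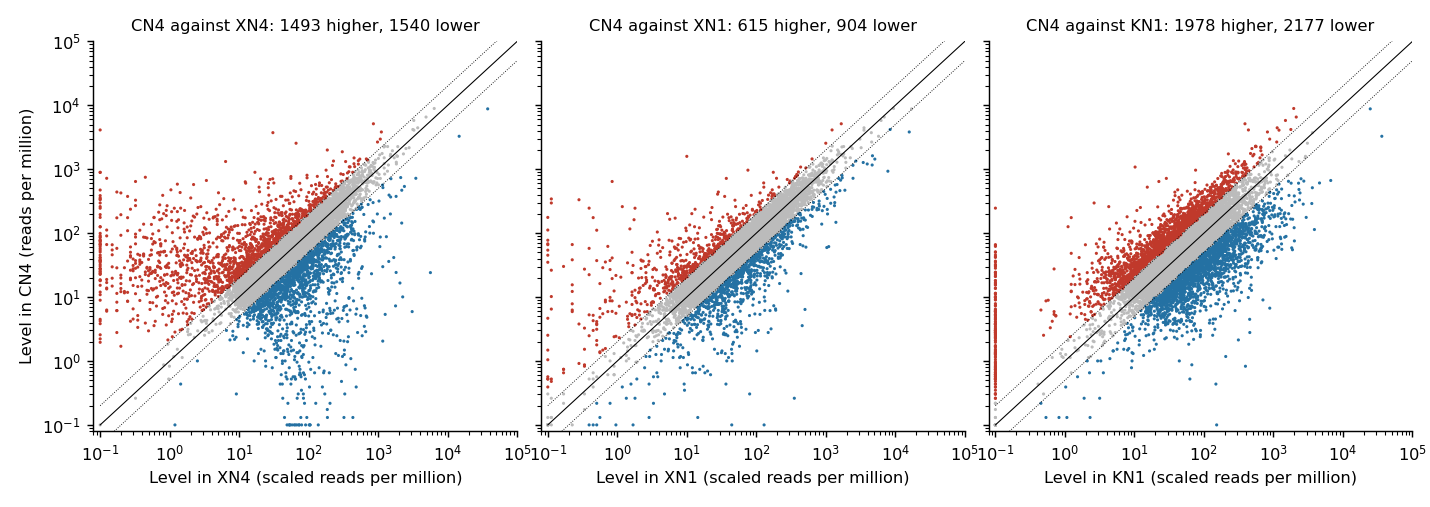
Level of each of the 10238 genes in CN4 (vertical log axis, RPM) against its level in XN4, XN1, and KN1 (horizontal log axes, scaled RPM), 1 point per gene, with levels under 0.1 drawn at 0.1. Red and blue points are at least 2-fold higher and lower in CN4, the solid line marks equal levels, and the dotted lines mark 2-fold. The cloud is narrowest against XN1, and a column of points at the left edge against KN1 holds genes that were not listed there.

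The genes that set CN4 apart from all of the other lines were few. In CN4, 108 genes (1.05%) were at least 2-fold higher than in each of XN4, XN1, and KN1, and 135 (1.32%) were at least 2-fold lower than in each. Without the scaling the counts were 139 and 107, which moved the part that was higher from 44.4% to 56.5%. Of the 108 genes, 37 were at least 4-fold and 12 at least 10-fold above the nearest line. In KN1, 8 of the 108 were not listed and were set to the floor. The nearest line was XN1 for 61 of them, KN1 for 38, and XN4 for 9. Of the 135 lower genes, 29 were at least 4-fold and 3 at least 10-fold below the nearest line. The nearest line was then XN1 for 61, KN1 for 43, and XN4 for 31. Of the 108, 82 had a read in at least 10% of thinned CN4 cells.

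The 5 markers given for CN4 were *Hoxc6*, *Hoxa9*, *Ctsc*, *Sox2*, and *Dbx2*, all protein-coding genes of the GRCm38 annotation. They lie at chr15:102998257-103011881 (*Hoxc6*), chr6:52223100-52231089 (*Hoxa9*), chr7:88278085-88310888 (*Ctsc*), chr3:34650405-34652461 (*Sox2*), and chr15:95623563-95655960 (*Dbx2*). *Hoxc6*, a *Hox* factor of the cervical and thoracic spinal cord, had 1516 reads in CN4 and none in XN4 or XN1, and it was not listed in KN1. Its level was 66.0 RPM in CN4 (62.8 to 69.4), at least 887-fold higher than in XN4 and at least 391.8-fold higher than in XN1, with 3 reads per library as the floor. *Hoxa9* was at 20.9 (19.04 to 22.8) in CN4, with 1 read each in XN4 and XN1 and no listing in KN1. The ratios to these single reads were 841-fold (150.2 to 33280) and 371-fold (66.3 to 14700), and with the floor of 3 reads the smallest ratio was 123.8. It fell short of the level minimum over the 4 lines and is not among the 108 genes. A gene that is not listed in KN1 was not measured there. With such genes set to 9 KN1 cells, or 2.731 RPM, an alternative chosen after seeing the data, the smallest of the 3 ratios would be 24.6 for *Hoxc6* and 7.78 for *Hoxa9*.

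*Ctsc*, which encodes the lysosomal protease cathepsin C, was at 62.1 RPM in CN4 (58.9 to 65.4), 0.730 in XN1 (13 reads), and 1 read in XN4, and it was not listed in KN1. *Dbx2*, a homeobox factor of the intermediate neural tube, was at 65.8 in CN4 (62.5 to 69.2), 7.47 in XN1, 1.97 in KN1, and 0.149 in XN4. *Sox2* did not separate CN4 from XN1 by 2-fold. It was at 584 in CN4, 330 in XN1, 132 in KN1, and 1.29 in XN4, and the CN4 level was 1.77-fold (1.72 to 1.83) that of XN1. *Sox2* is overlapped by *Sox2ot* in the annotation, so their reads may not be fully separated.

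Among the 15 genes that stood furthest above all of the other lines and were captured in at least 10% of thinned CN4 cells were *Hoxc6*, *Zic1*, *Bmp5*, *Hoxc8*, *Ctsc*, *Nnat*, *Sox1*, *Hopx*, *Cntn1*, *Gatm*, *Fzd10*, *Dbx2*, *Prokr1*, and *Gbx2*. The order is by the smallest of the 3 ratios. Transcription factors made up 7 of them, counting *Hopx*, which encodes a homeodomain protein that does not bind DNA. The others include a secreted signal (*Bmp5*), a Wnt receptor (*Fzd10*), and genes of adhesion and metabolism.

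Among the factors, *Zic1*, a zinc finger gene of the dorsal neural tube, was at 246 RPM in CN4 (239.9 to 253), 1.44 in XN4, and 0.393 in XN1, and was not listed in KN1. Its ratio was 171-fold (132 to 226) over XN4. The neighboring gene *Zic4*, which is transcribed from the opposite strand and overlaps *Zic1*, was at 14.9, 0.471, and 0.112 and was not listed in KN1 either. The other neighboring pair, *Zic2* and *Zic5*, did not follow, as *Zic2* was at 22.4 in CN4 and 40.5 in XN4, and *Zic5* at 64.5 and 46.9. *Sox1*, a SoxB1 factor of neural progenitors, was at 68.1 in CN4 (64.8 to 71.6), 2.83 in KN1, 0.0993 in XN4 (4 reads), and 1 read in XN1. Its ratio over KN1, the nearest line, was 24.1-fold (18.9 to 31.1). *Hopx*, a gene of radial glia, was at 719 in CN4, and at 55.4, 37.0, and 28.8 in XN4, XN1, and KN1. The 3 references were thus close to each other for this gene. *Gbx2* was at 50.8 in CN4, 6.65 in KN1, and 5.73 in XN1, with no read in XN4.

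Among the remaining leading genes, *Bmp5*, a ligand of the BMP family, was at 175 RPM in CN4 (169.6 to 180.4) and between 0.449 and 1.23 in the other lines. *Nnat*, which encodes a small membrane protein and overlaps *Blcap* on the opposite strand, was at 643 in CN4, 22.5 in KN1, 0.843 in XN1, and 0.323 in XN4. Both genes thus had a level in CN4 that no other library approached. *Cntn1*, a cell adhesion molecule, was 10.9-fold (9.88 to 12.1) above XN1, its nearest line, and *Gatm*, an enzyme of creatine synthesis, 9.76-fold (8.53 to 11.2). *Fzd10*, a Frizzled receptor for Wnt, was at 75.3 in CN4, 8.50 in KN1, 6.12 in XN1, and 2 reads in XN4. *Prokr1*, a prokineticin receptor, was at 45.5 in CN4 and 5.67 in XN1 and was not listed in KN1.

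**Figure D2:**
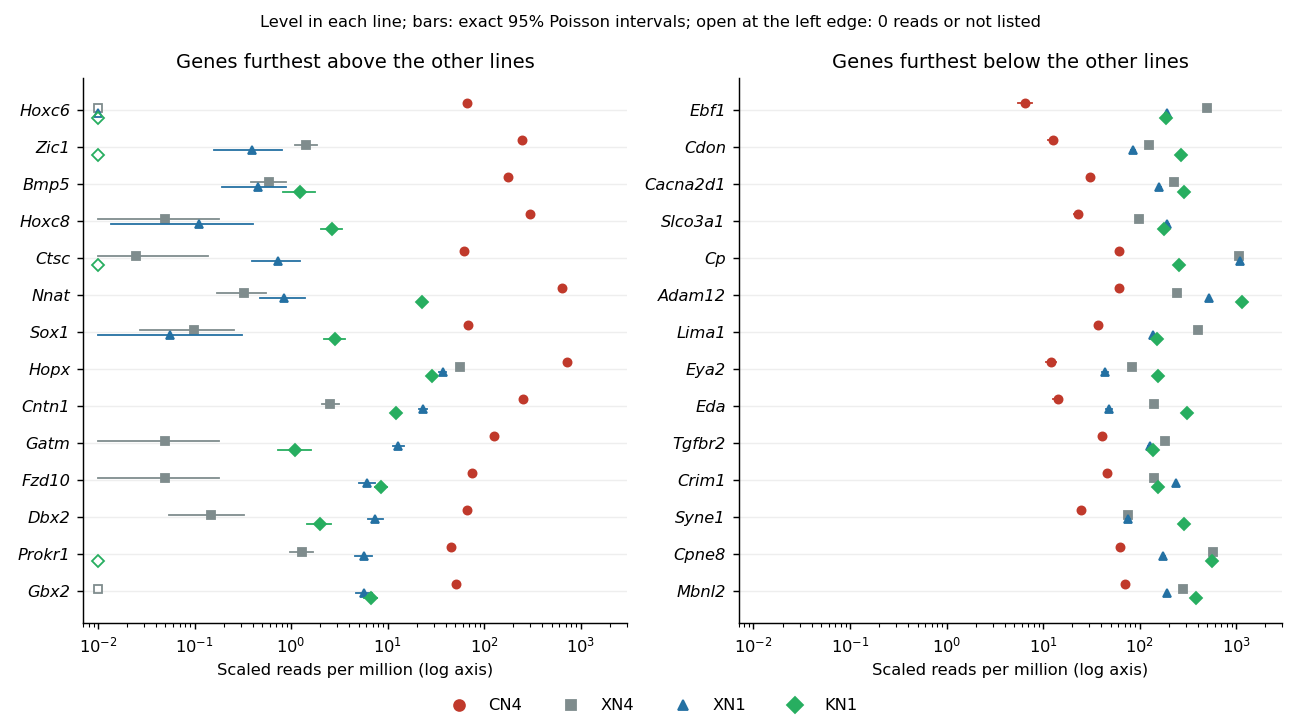
Levels (horizontal log axes, scaled RPM) of 14 of the 15 genes that stood furthest above the other lines in CN4 (left) and 14 of the 15 that stood furthest below (right), with 1 symbol per line and exact 95% Poisson bars. Open symbols at the left edge mark 0 reads or a gene not listed in KN1. On the left the CN4 symbol lies to the right of the other lines in every row, by a smallest factor of 7.64 for *Gbx2* against KN1, and on the right it lies to the left of them.

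Of 39 *Hox* genes, 27 were measured, and in CN4 all 27 had reads. A gene counts as measured if it is listed for any of the lines. Some, such as *Hoxc6* and *Hoxa9*, entered through CN4, so their reads there and their higher level follow in part from this rule. CN4 levels were at least 2-fold higher for 26 of 27 *Hox* genes against XN4 and for 24 of 27 against XN1, with 0 and 1 at least 2-fold lower. Of the 16 above the level minimum, 15 and 14 were higher, but that minimum too can be met through CN4 alone. Against KN1, 18 *Hox* genes could be compared, of which 7 were higher and 1 lower, and 9 were not listed there. These and later counts of lists stand beside shares over all genes of 14.6% higher and 15% lower against XN4, 6.01% and 8.83% against XN1, and 19.3% and 21.3% against KN1, and they include members under the level minimum. Medians and counts of lists against KN1 are over the members listed there. The shares and the median over all genes include genes not listed in KN1, so the sets are unlike. The median log2 ratio was 8.65 against XN4 and 7.47 against XN1, with genes at 0 reads set to the floor of 3 reads, and 0.58 against KN1, where the median over all genes compared was 0. Of 16 *Hox* genes above the level minimum, 6 were among the 108, namely *Hoxb2*, *Hoxb7*, *Hoxb8*, *Hoxb9*, *Hoxc6*, and *Hoxc8*.

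In the *Hoxb* cluster on chromosome 11, the level of each of the 8 measured genes was between 35.0 RPM (*Hoxb5*) and 343 (*Hoxb8*) in CN4, and none had more than 5 reads in XN4 or XN1. KN1 had *Hoxb* reads as well, and the ratio of CN4 to KN1 differed along the cluster. Some genes in the middle were near the KN1 level or below it, with *Hoxb3* at 112 in CN4 and 119 in KN1, *Hoxb4* at 54.2 and 57.8, and *Hoxb5* at 35.0 and 55.0. The genes of the highest numbers were above it. *Hoxb8* was at 343 and 137, and *Hoxb9* at 333 and 45.3, a ratio of 7.35-fold (6.90 to 7.84). *Hoxb2*, at the opposite end, was at 66.3 and 11.7.

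In the *Hoxa* cluster on chromosome 6, 5 of the 7 genes that could be compared were within 2-fold of KN1, and 2 of the 9 were within 2-fold of XN1. *Hoxa7* was at 237 RPM in CN4, 268 in KN1, 13.2 in XN1, and 0.273 in XN4. *Hoxa3* and *Hoxa4* were lower in CN4, at 19.7 and 11.98, than in XN1, at 33.5 and 27.5. *Hoxa10*, the next posterior gene after *Hoxa9* in the cluster, was at 7.32 in CN4 with 1 read in XN4, none in XN1, and no listing in KN1. The level of the cluster as a whole was 518 in CN4 and 519 in KN1, and 179 in XN1.

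In the *Hoxc* cluster on chromosome 15, all 6 measured genes, *Hoxc4*, *Hoxc5*, *Hoxc6*, *Hoxc8*, *Hoxc9*, and *Hoxc10*, had at most 2 reads each in XN4 and in XN1, and only *Hoxc8* was listed in KN1, so the other 5 could not be compared with that line. *Hoxc8* was at 296 in CN4 (289 to 304) and 2.63 in KN1, a ratio of 113-fold (88.2 to 147). *Hoxc10* was at 0.958 (22 reads) in CN4, far below its neighbor *Hoxc9* at 30.6. The gene model of *Hoxc5* spans those of *Hoxc6*, *Hoxc8*, and *Hoxc9* on the same strand, so reads within the cluster may not be fully separated. In the *Hoxd* cluster, *Hoxd8* was at 45.2 in CN4, 40.9 in XN4, 19.9 in KN1, and 1 read in XN1, so CN4 and XN4 were within 2-fold of each other for this gene.

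**Figure D3:**
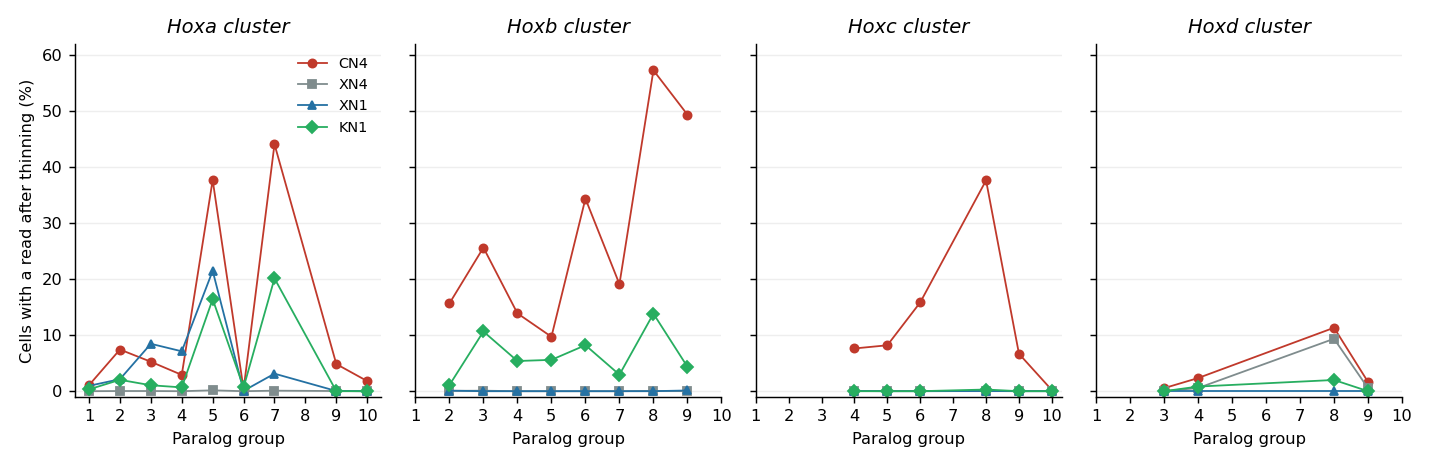
Share of cells with a read after thinning to 3200 reads (vertical axis, percent) for the measured *Hox* genes of the 4 clusters, by paralog group (horizontal axis), with 1 symbol per gene and line and genes not listed in KN1 drawn at 0. CN4 reaches 57.3% for *Hoxb8* and 37.6% for *Hoxc8*, and XN1 lies above it for *Hoxa3* and *Hoxa4*. KN1 shares are low at a given level, so the distance between CN4 and KN1 is larger here than in the levels.

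Factors that work beside the *Hox* proteins did not follow the same order. Among the 7 *Meis* and *Pbx* genes, *Meis2* was at 126 RPM in CN4, 28.7 in XN4, 30.7 in XN1, and 681 in KN1. The medians of the list were 0.21 against XN4, 0.73 against XN1, and -1.69 against KN1 on the log2 scale. Of the factors of the caudal end and of axial progenitors, 5 of 10 were measured and only *Sp8* passed the level minimum. It had 0 reads in CN4 and a level of 152 RPM in KN1.

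Of the 15 factors of brain regions, 13 were measured, and *Gbx2* was the only one above the level minimum that was past 2-fold against all lines. *En1*, a midbrain and anterior hindbrain gene, was at 82.7 RPM in CN4 and 81.7 in XN1, and at 16.4 in KN1 and 2.53 in XN4. *En2* was lower in CN4 than in XN1, at 3.05 and 51.6. *Otx1*, a forebrain and midbrain gene, had 0 reads in CN4 and was at 44.3 in XN1, at least 339-fold higher there. *Lmx1b*, which was under the minimum, had 3 reads in CN4 and was at 19.4 in KN1, 8.31 in XN1, and 6.05 in XN4. *Foxb1* and *Irx1*, both of which are found in the neural tube, were among the 108 genes, at 38.3 and 51.0 in CN4 and at no more than 3.16 and 15.5 elsewhere.

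Of the 19 dorsoventral factors, 16 were measured, and genes of dorsal, intermediate, and ventral positions were found in the same library. The dorsal gene *Pax3* was at 35.3 RPM in CN4 and at 1.34, 0.337, and 0.575 in XN4, XN1, and KN1, which is more than 2-fold in each case although its mean level was below the minimum. The ventral genes *Foxa2* and *Shh* had 297 and 163 reads in CN4, levels of 12.9 and 7.10, and were below the minimum too. *Olig2* was at 895 in CN4 and 964 in XN1 and was 2.55-fold (2.48 to 2.61) above KN1, with no read in XN4. *Irx3* was lower in CN4, at 29.0, than in XN4 and XN1, at 98.2 and 67.5. The list had medians of 3.49, -0.08, and 1.13 on the log2 scale against XN4, XN1, and KN1.

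CN4 is the line that received the Wnt agonist, and 20 target and feedback genes of the pathway were listed for it, of which 17 were measured. Against XN4, 12 were at least 2-fold higher in CN4 and 1 was lower. Against XN1, 7 were higher and 4 lower. Against KN1, 8 of the 14 listed there were higher and 3 lower, a share of lower genes close to the 21.3% over all genes. The median log2 ratio was 2.39 against XN4, -0.001 against XN1, and 1.25 against KN1. That against XN1 was 0.115 without the scaling. Of the 9 Wnt genes above the level minimum, *Axin2* and *Nkd1* were among the 108.

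*Axin2* encodes a scaffold of the complex that destroys beta-catenin, and *Nkd1* an inhibitor of Dishevelled. *Axin2* was at 94.9 RPM in CN4 (90.9 to 98.9), 22.6 in XN1, 19.3 in KN1, and 3.10 in XN4. *Nkd1* was at 47.5 in CN4 (44.7 to 50.4), 16.5 in KN1, 12.6 in XN1, and 3.55 in XN4. The ratio to the nearest line was 4.19-fold (3.77 to 4.67) for *Axin2* and 2.88-fold (2.57 to 3.24) for *Nkd1*. Both genes had the same order at the ends, with CN4 first and XN4 last. *Wif1* and *Rnf43*, which encode a secreted Wnt binding protein and a ligase that removes Frizzled receptors, were also above each other line by more than 2-fold but below the level minimum, with *Wif1* at 17.3 in CN4 and *Rnf43* at 1.48.

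Other genes of the list did not have CN4 first. *Lgr5*, a receptor of R-spondin, and *Znrf3*, a ligase related to *Rnf43*, were at 60.8 and 93.9 in CN4 and at 124 and 258 in KN1, where no agonist was added. *Ccnd1*, which encodes cyclin D1, was at 1343 in CN4 and 2705 in XN1. The factors *Lef1*, *Tcf7*, and *Sp5* were lower in CN4 than in XN1, at 1.48, 6.36, and 1.87 against 14.9, 27.4, and 10.7. *Myc* was the same in both, at 86.5 and 86.5. *Nkd2*, a relative of *Nkd1*, was lower in CN4 than in XN4, by 4.75-fold (3.18 to 7.36).

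The sequence before the start of a gene is shown for *Axin2* and *Nkd1*, the Wnt genes above the level minimum that were at least 2-fold higher in CN4 than in each other line, and for *Sp5*, which was not. Each window is the 250 bases before a start in RefSeq (GRCm38.p6), 5′ to 3′ on the plus strand. Capitals mark matches to the core of the TCF/LEF motif, searched as CTTTGAA or CTTTGAT or CTTTGTA or CTTTGTT on both strands. *Axin2* lies at chr11:108920099-108920348, *Nkd1* at chr8:88527383-88527632, and *Sp5* at chr2:70474673-70474922. The start used for *Nkd1* lies within the gene of the GENCODE annotation, which begins at base 88521354, so it may be 1 of several starts.
Axin2: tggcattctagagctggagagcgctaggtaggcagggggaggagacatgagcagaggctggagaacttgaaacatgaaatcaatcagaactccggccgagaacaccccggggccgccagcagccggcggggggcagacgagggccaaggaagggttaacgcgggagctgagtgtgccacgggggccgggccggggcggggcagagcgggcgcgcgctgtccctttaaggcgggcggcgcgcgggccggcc
Nkd1: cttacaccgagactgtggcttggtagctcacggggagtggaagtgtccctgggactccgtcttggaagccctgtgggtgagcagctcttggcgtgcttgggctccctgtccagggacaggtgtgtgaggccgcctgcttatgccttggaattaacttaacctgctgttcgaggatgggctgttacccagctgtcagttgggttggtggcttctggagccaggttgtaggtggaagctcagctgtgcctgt
Sp5: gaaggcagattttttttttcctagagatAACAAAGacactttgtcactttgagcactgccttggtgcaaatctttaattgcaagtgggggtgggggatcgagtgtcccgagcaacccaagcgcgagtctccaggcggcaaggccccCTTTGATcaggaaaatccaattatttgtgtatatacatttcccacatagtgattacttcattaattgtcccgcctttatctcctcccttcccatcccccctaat
The windows of *Axin2* and *Nkd1* had 0 matches, and that of *Sp5* had 2, starting at bases 29 and 147. Their GC content was 69.2%, 58.4%, and 46.0%, respectively. Of all 32851 windows, 14.8% held a match. The share was 23.5% (4 of 17) for the windows of 11 Wnt genes, with matches for *Dkk1*, *Lef1*, *Sp5*, and *Tnfrsf19*. It was 11.1% for the 99 windows of 76 of the 108 genes. These shares were not tested and say nothing of sequence outside the windows. No match says only that these letters are not in the 250 bases.

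The list of neural stem cell genes was higher in CN4 against all of the other lines in its median, at 4.29, 0.82, and 0.87 on the log2 scale against XN4, XN1, and KN1. Of the 15 genes, 11, 5, and 5 were at least 2-fold higher, and 1 was lower against KN1. *Sox1* and *Fabp7* were past 2-fold against each line. *Fabp7* was at 4115 RPM in CN4, 1230 in XN1, and 436 in KN1, with no read in XN4. *Sox3*, another SoxB1 factor, was at 195 in CN4, 104 in XN1, and 60.3 in KN1, again with no read in XN4. *Zeb2* and *Prom1* stood lowest in the list, with *Zeb2* at 135 in CN4 and 330.2 in KN1.

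Genes of the Notch pathway, which keeps neural progenitors undifferentiated through contact between neighbors, also had medians above 0 against each line. Of 14 genes, 9 were at least 2-fold higher than in XN4, 8 than in XN1, and 6 of 13 than in KN1, and 1 was lower, against XN1. The medians were 2.96, 1.25, and 0.71 on the log2 scale. The ligand *Dll1*, the target *Hey1*, and the feedback gene *Nrarp* were among the 108. *Dll1* was at 39.4 RPM in CN4, 15.6 in KN1, 6.80 in XN1, and 0.298 in XN4. *Hey1* was at 71.1, 19.9, 12.5, and 0.620 in the same order of lines. The target *Hes5* was close to KN1, at 77.8 and 63.6, and above XN1, at 11.1.

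Among 17 genes of BMP and TGF-beta signaling, *Bmp7* and *Id4* were at least 2-fold higher in CN4 than in each other line and *Tgfbr2* was lower. For *Id4* the part against KN1 rests on the floor of 3 reads. *Bmp7* was at 36.8 RPM in CN4 and at 8.20, 7.05, and 3.04 in XN1, XN4, and KN1. *Id4*, which encodes an inhibitor of proneural factors, was at 50.2 in CN4 and 1.63 in XN1 and was not listed in KN1. The receptor *Tgfbr2* was at 40.5 in CN4 and between 127 and 181 in the others. The medians of the list were 0.06, 0.32, and 0.75 on the log2 scale.

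The Hedgehog list had *Cdon*, a coreceptor for Shh, past 2-fold in the lower direction against each line. Its level was 12.5 RPM in CN4, 85.6 in XN1, 124 in XN4, and 266 in KN1. The target *Ptch1*, which is also the receptor, was at 141 in CN4, between 79.7 in XN1 and 195 in KN1, and at 14.2 in XN4. *Gas1*, another coreceptor, was at 225 in CN4 and 890.3 in XN1. The medians were -0.09 and 0.94 over the 10 genes and -0.54 over the 9 listed in KN1.

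For 18 feedback genes of the EGF and FGF receptors, the medians were 0.46, -0.29, and -0.17 on the log2 scale. *Etv5*, which FGF signals switch on, was at 294 RPM in CN4, 1177 in XN1, 908 in KN1, and 53.5 in XN4. The same growth factors were added to all 4 lines at the same concentration. The 11 measured genes of retinoic acid signaling had medians of -3.04, -0.66, and -0.58, the last over 8 genes, and none was at least 2-fold higher in CN4 than in XN4, where *Dhrs3*, an enzyme that lowers retinoic acid, was at 306 against 1.18 in CN4.

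**Figure D4:**
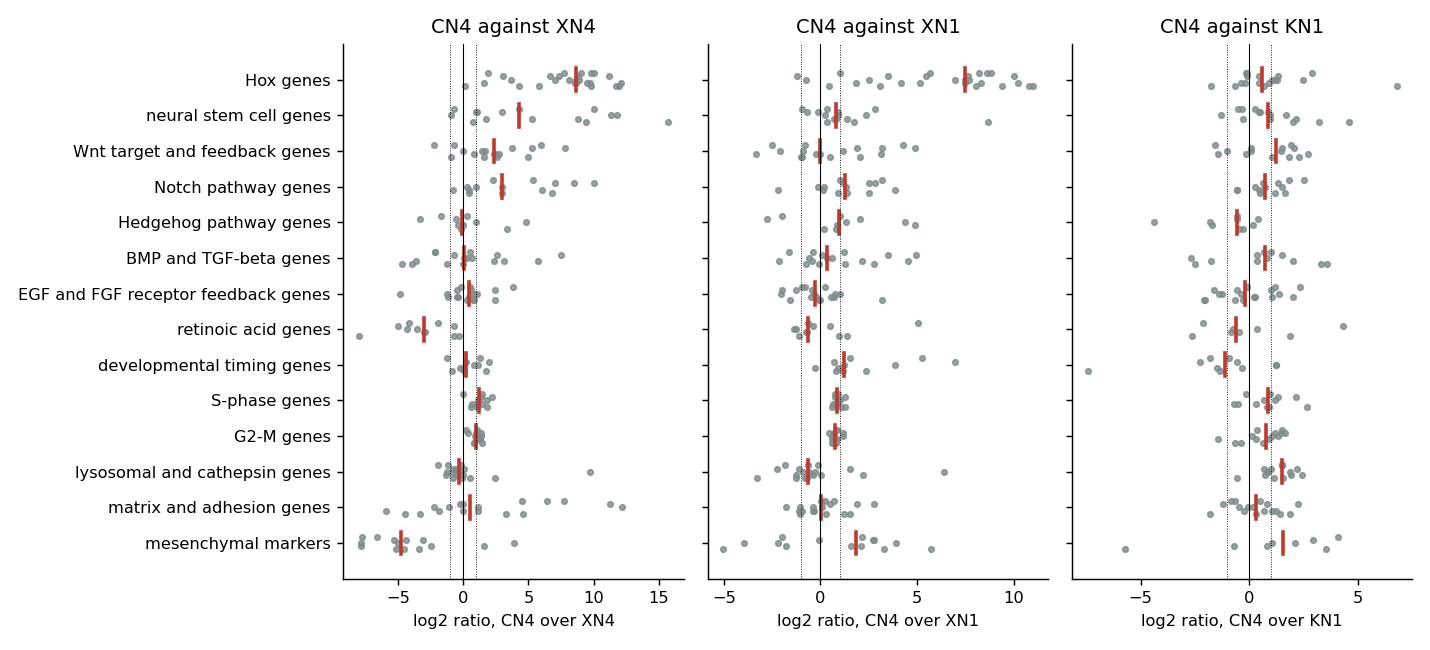
Log2 ratio of CN4 over XN4, XN1, and KN1 (horizontal axes) of the genes of the main lists, with 1 point per gene, a mark for the median of each list, a solid line at 0, and dotted lines at 2-fold. Neural stem cell, Notch, and cell cycle genes lie mostly to the right of 0 in all 3 panels, whereas the *Hox* genes are far to the right against XN4 and XN1 and near 0 against KN1.

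Cell cycle genes had medians above 0 against each line. All 14 of the G2-M list were above the level of XN4 and of XN1, and 11 of 14 above that of KN1, with 6, 2, and 6 at least 2-fold higher and 1 lower, against KN1. The medians were 0.97, 0.75, and 0.78 on the log2 scale. For the 12 genes of the S-phase list, the medians were 1.22, 0.87, and 0.87, and 9, 4, and 4 genes were at least 2-fold higher. *Pcna*, the sliding clamp of DNA replication, was at 409 RPM in CN4, 171 in XN1, 114 in XN4, and 63.9 in KN1. *Mcm4*, a subunit of the replicative helicase, was at 183, 76.8, 72.7, and 41.1 in the same order. *Rrm1* and *Ccnb1* were past 2-fold against each line too, by 2.01-fold and 2.22-fold over XN1. *Cdk6*, a kinase that works with D-type cyclins, was at 97.7 in CN4 and at no more than 30.4 elsewhere. The share of thinned cells with *Top2a* was 55.7% in CN4, 23.2% in XN4, 29.1% in XN1, and 36.6% in KN1.

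Further genes among the 108 are given as single examples, chosen after their values were seen. *Chl1*, a cell adhesion molecule, was at 476 RPM in CN4, 169.6 in XN1, 42.0 in KN1, and 1.04 in XN4. The integrin *Itga6* was at 337, 146, 92.4, and 33.9, and the proteoglycan *Ncan* at 246, 65.2, 51.6, and 0.0993. *Ptn*, a secreted growth factor of radial glia, was at 5141 in CN4, 1668 in XN1, 853 in XN4, and 389 in KN1. The Wnt inhibitors *Sfrp2* and *Draxin* were at 41.8 and 46.0 in CN4 and at 7.13 and 7.27 in their nearest lines.

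Among the 15 genes that stood furthest below all of the other lines and were captured in at least 10% of the cells of each other line were *Ebf1*, *Cdon*, *Cacna2d1*, *Slco3a1*, *Cp*, *Adam12*, *Lima1*, *Eya2*, *Eda*, *Tgfbr2*, *Crim1*, *Syne1*, *Cpne8*, and *Mbnl2*. *Ebf1*, a helix-loop-helix factor of neurons and mesenchyme, was at 6.53 RPM in CN4 (5.53 to 7.67) and at 491, 189, and 185 in XN4, XN1, and KN1. It was 28.3-fold (24.1 to 33.5) higher in KN1, its nearest line. Its relative *Ebf3* was also below each line, at 19.9 in CN4 and 63.8 in KN1. *Cp*, the copper carrier ceruloplasmin, was at 61.6 in CN4, 257 in KN1, and 1057 and 1101 in XN4 and XN1. *Adam12*, a membrane metalloprotease, was at 60.4 in CN4, and at 242, 518, and 1155 in the others.

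The other 12 of the 15 genes were below their nearest line by factors from 2.74 (*Mbnl2*) to 6.85 (*Cdon*). *Cacna2d1*, a calcium channel subunit, was at 30.4 RPM in CN4 and 159 in XN1. By the share of thinned cells, 7 of the 15 genes were less than 2-fold below KN1, whose shares are low at a given level, among them *Cp*, *Lima1*, *Tgfbr2*, *Crim1*, *Cpne8*, and *Mbnl2*. The part of the low complexity of the KN1 library in this was not tested.

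Some others of the 135 lower genes are given as single examples, chosen after their values were seen. *Mylk*, the kinase of myosin light chain, was at 8.67 RPM in CN4 and at 59.6, 70.6, and 133 in XN4, KN1, and XN1. *Ctgf*, a secreted matrix protein gene, was at 1.44 in CN4 and between 16.5 and 102 in the others. *Ddit3*, a factor of the unfolded protein response, was at 10.4 in CN4 and between 30.8 and 48.4 elsewhere. Each was below all 3 other libraries. *Relb*, a subunit of NF-kappaB, was at 12.4 in CN4 and between 33.9 and 81.1 in the other lines.

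The genes at the ends of each single comparison were as follows. Against XN4, *Fabp7*, *Olig2*, and *Olig1* had the largest ratios in the higher direction, with no read in XN4, and *Plscr2* and *Dpep1* were among those in the lower, with 3 reads each in CN4 and levels of 322 and 186 RPM in XN4. The mesenchymal markers moved with this comparison, at a summed level of 11420 in XN4 and 238 in CN4, where 12 of the 14 were at least 2-fold lower, and their part in it was not tested. Against XN1, the higher genes were *Hoxb8*, *Hoxc8*, and *Hoxb9*, and the lower were *Exph5*, *Srpx2*, and *Otx1*. *Exph5* was at 352 in XN1 and 0.261 in CN4. Another gene separated this pair, *Xist*, the RNA that silences an X chromosome, captured in 92.6% of CN4 and 1.02% of XN1 cells. It was the only one of 4 measured sex chromosome genes above the level minimum. Their summed level was 1592 RPM in CN4, 1895 in XN4, 2894 in KN1, and 12.47 in XN1, so XN1 was the line that stood apart. Against KN1, the genes that led in the higher direction, *Zic1*, *Hoxc6*, and *Zic5*, were not listed in KN1, so their place rests on the floor of 3 reads. With such genes set to 9 cells, the smallest of the 3 ratios was 91.8 for *Zic1* and 24.6 for *Hoxc6*, below the 144.6 of *Bmp5* and the 114.9 of *Hoxc8*, which were listed. The place of *Zic1* and *Hoxc6* in this order follows from the level that was set, 2.731 RPM, so it does not rank them. The lower were *Sp8*, *Kcnb2*, and *Lin28b*, with *Kcnb2*, a potassium channel gene, at 0.828 in CN4 and 396 in KN1.

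*Lin28b* belongs to the genes of developmental timing, which are active early in neural development. It was at 1.18 RPM in CN4, close to XN4 and XN1 and 175-fold lower than in KN1. *Hmga2*, a chromatin protein of early progenitors, had an intermediate level in CN4, at 407, between 27.8 in XN1 and 1144 in KN1. *Igf2bp2* and *Igf2bp3*, which encode RNA binding proteins, were likewise at 202 and 198 in CN4, at 5.28 and 38.6 in XN1, and at 294 and 374 in KN1. The median of the list was 1.19 against XN1 and -1.13 against KN1, and 0.22 against XN4.

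Of the remaining lists, the 18 lysosomal genes had medians of -0.37, -0.67, and 1.501 against XN4, XN1, and KN1, the last over 15 genes. *Ctsc* was the only one above the level minimum past 2-fold against all of these lines, with the floor of 3 reads used in KN1. *Ctsh*, another cathepsin gene, was at 6.01 RPM in CN4 and 58.6 in XN1. The medians were 0.52, -0.48, and 0.90 for 15 genes of cholesterol synthesis and 0.69, -0.13, and 1.21 for 15 of glycolysis. For 13 imprinted genes they were -2.83, -0.14, and 1.36, the last over 9 genes. *Plagl1*, an imprinted factor, was at 24.3 in CN4, 9.24 in KN1, 145 in XN1, and 1811 in XN4. The 18 matrix and adhesion genes had medians of 0.54, 0.04, and 0.30.

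The markers of other cell types are given by their summed levels. The 9 measured neuron markers had a summed level of 685 RPM in CN4, 849.9 in XN1, 2036 in KN1, and 15.7 in XN4, and the sum in CN4 was mostly *Map2*, at 605. For the 8 astrocyte markers the sums were 809.5 in CN4, 499 in XN1, 353 in KN1, and 298 in XN4, and *Gfap* was captured in 2.72% of thinned CN4 cells. For the oligodendrocyte lineage they were 1865, 2038, 861, and 262, of which *Olig1* and *Olig2* made up most in CN4. For the neural crest list they were 107, 51.6, 16.5, and 178. The KN1 sums leave out members that were not listed there, which were 1 neuron, 3 astrocyte, 3 oligodendrocyte lineage, and 5 neural crest markers. Levels are not corrected for gene length, so that a sum weights its genes unequally.

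The genes of CN4 were next examined cell by cell in the thinned cells. The number of the 15 leading genes with a read had a median of 4 in CN4 cells, with a 5th and 95th percentile of 2 and 8. At least 3 of them were captured in 85.9% of CN4 cells (84.7% to 87.1%), compared with 1 XN4 cell, 12 XN1 cells, and 0 KN1 cells. In KN1, the count is over 11 genes, as 4 were not listed, in a library whose shares are low. In CN4, 14 cells (0.443%) had none, whereas 87.9% of XN4, 79.5% of XN1, and 92.0% of KN1 cells had none. The cells were the ones in which the genes were chosen, and genes captured in under 10% of thinned CN4 cells were left out beforehand. The counts thus only describe how the reads are spread over cells, and they do not test whether a few cells carry the genes.

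Since all cells were thinned to the same number of reads, the number was compared over the original depth only as a description. Its mean was 4.28 in the 1052 shallowest of the thinned cells, 4.53 in the next 1053, and 4.49 in the 1054 deepest, with standard deviations of 1.79, 1.81, and 1.80 over cells. It was 4.39 in 1759 cells with *Top2a* and 4.49 in 1400 cells without. Single genes ran in opposite directions, as from the shallowest to the deepest cells *Hopx* went from 52.9% to 65.4% and *Cntn1* from 46.7% to 40.1%. *Cntn1* was captured in 40.5% of cells with *Top2a* and 47.2% of those without, and *Sox2* in 76.9% and 68.5%. The 1% of CN4 cells with the most reads of a gene held 5.94% of the reads of *Zic1*, 20.4% of those of *Ctsc*, and 30.9% of those of *Hoxa9*. Such a share tends to be larger for genes with fewer reads, so these genes cannot be set side by side. *Adam12*, with 1387 reads against 1425 of *Ctsc*, had 12.3%.

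For the 15 lowest genes, the counts ran the other way. These genes were chosen in the same cells, with a read in at least 10% of the cells of each other line, so this too is only a description. CN4 cells had a median of 1 of the 15 genes, compared with 6 in XN4, 5 in XN1, and 3 in KN1. At least 3 were captured in 17.7% of CN4 cells (16.4% to 19.04%), 97.6% of XN4, 94.2% of XN1, and 55.9% of KN1 cells. The 1% of CN4 cells with the most reads of *Ebf1* held 50.0% of its 150 reads. Genes with about as many reads had similar shares, at 43.6% for *Apcdd1* (156 reads) and 55.6% for *Col26a1* (142 reads).

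**Figure D5:**
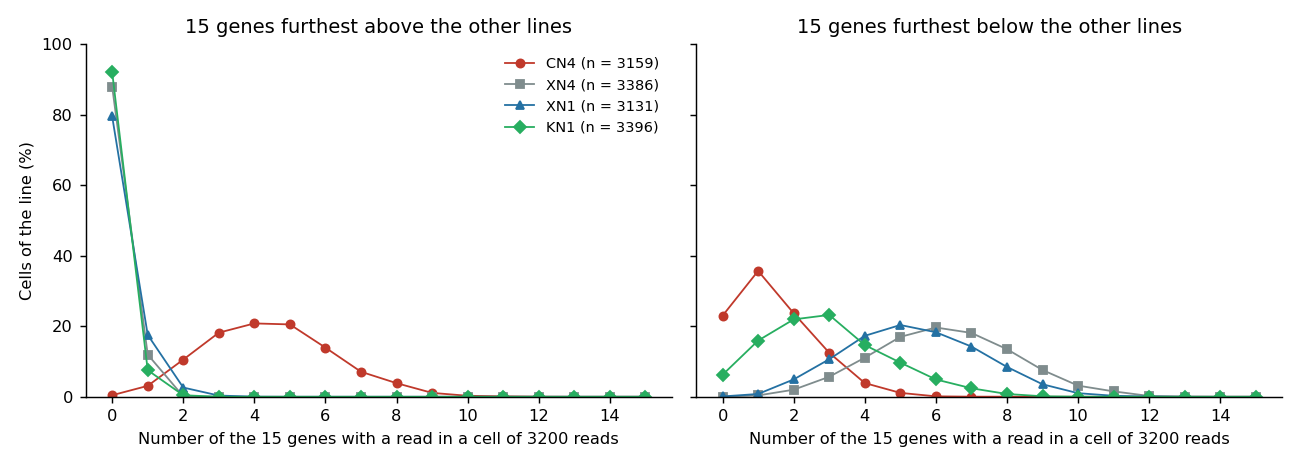
Share of the cells of each line (vertical axis, percent) by the number of the 15 genes with a read in a cell thinned to 3200 reads (horizontal axis), for the genes that stood furthest above (left) and furthest below (right) the other lines in CN4. On the left the CN4 cells peak at 4 genes while the other lines peak at 0, and on the right the CN4 cells peak at 1 gene.

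The CN4 library also held 14709 cells with 118673664 reads that are not in the normalized table. They are of the same library as the cells of the table, so they are no replicate, and close levels are no independent support. The authors describe a random draw, but the table holds fewer cells than the paper states were drawn. It may thus not be a plain random part of the library. Over the 10238 genes, the level in the cells outside the table was within 2-fold of that in the table for 10208 genes (99.71%). For the 15 leading genes, the ratio of the former to the latter lay between 0.859 and 1.07.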

How the data were processed

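Single-cell poly(A) RNA of 4 NSC lines was captured with the BD Rhapsody system, 1 library per line. The authors aligned reads to mm10, removed ribosomal protein and mitochondrial genes, drew cells at random, and normalized each cell to 10000 with Seurat 4.3.0 (submitters' processing notes). The deposited normalized values are natural log values of 1 plus the normalized reads. The deposited all-reads tables of CN4, XN4, and XN1 hold counts of reads, not of molecular identifiers. For KN1, the pipeline settings are not given in the sources used here.

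Whole reads per gene and cell were recovered from the normalized values, and every value was whole to within 0.01. The normalized table of XN4 ends after *Zpr1*, and the rest of the cells' genes were read from the all-reads table, as were genes the normalized tables of CN4, XN4, or XN1 do not list. A gene that is not listed in KN1 has no ratio to KN1, and it was taken as 0 reads there, set to the floor, in the counts of genes past 2-fold. Reads were summed over the cells of a line. A level under that of 3 reads in a library was set to that of 3 reads. No doublets were called. Shares used cells thinned to 3200 reads, which left out 289 CN4, 541 XN4, 774 XN1, and 579 KN1 cells. Those given for cells with and without *Shh* used all CN4 cells without thinning. With 1 library per line there was no test and no p-value. The genes named are the 5 markers, the 15 genes furthest above and below the other lines, 3 per comparison and direction, the *Hox* and Wnt genes, up to 4 per other list, and those past 2-fold against all lines. Other genes named were chosen after their values were seen. Some genes that the rule names are not reported here. The members and gene lists were chosen with earlier results of these data known. Alternatives changed the scaling, the level minimum, the fold, the cells, and the libraries used. Steps were tested on simulated data. Python 3.11.15, numpy 2.4.6, scipy 1.17.1, pandas 2.3.3, and matplotlib 3.10.9 were used.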

Additional observations from a re-analysis of the deposited data

Results flagged for a closer look

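The cells outside the normalized table, which the comparisons of the report do not use, also had reads of the markers of CN4. They are of the same library as the cells of the table, so they are no independent support. In those CN4 cells, *Hoxc6* was at 63.72 RPM, against 0 in XN4 and 0.0551 in XN1. *Hoxa9* was at 23.17, against 0.0692 and 0.0551. *Ctsc* was at 64.3, against 0.121 and 0.588, and *Dbx2* was at 61.15, against 0.0519 and 7.24. *Sox2* was at 583.2, against 0.796 in XN4 and 315.7 in XN1. These levels were not scaled between lines, and such cells of KN1 were not analysed here.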

How the results depend on the processing

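No paired analysis was possible because the labels give no replicate numbers and each line has 1 library, so no library could be left out within a line. Counts are given as higher and lower in CN4, first against each other line, then against XN4, XN1, and KN1. With a level minimum of 1 they were 238 and 266, 2453 and 2604, 1257 and 1607, and 3078 and 3437. With a minimum of 50 they were 34 and 54, 661 and 667, 204 and 395, and 918 and 1158. With no minimum they were 421 and 346, 3180 and 3681, 1799 and 2134, and 3916 and 4923. At 1.5-fold they were 295 and 352, 2503 and 2525, and 1466 and 1796, with 3091 higher than in KN1. At 4-fold they were 37 and 29, 744 and 671, 213 and 281, and 519 and 793. By the share of thinned cells they were 211 and 44 against each other line and 6520 and 352 against KN1. Leaving out XN4 gave 205 and 275 against each remaining line, leaving out XN1 445 and 577, and leaving out KN1 333 and 459. In all, 69 of 118 counts stayed within 1.5 times and 49 did not. The median of the Wnt genes against XN1 turned from -0.001 to 0.115 without the scaling. Over 8 settings, 273 of 280 ratios of named genes, with those that are both marker and leading gene counted under each, stayed on their side of 2-fold, which for *Sox2* was below it. The other 7 fell under it, all by the share of cells. With genes not listed in KN1 set to 9 cells the counts against each other line were 109 and 167, and with such genes left out 100 and 135, both chosen after seeing the data.

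The depth of 1 library limits genes with few reads, and the floor of 3 reads sets the bounds given for genes without any. Shares in KN1 are limited by its low complexity. Spread between cultures of a line was not measured.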

Other observations

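In CN4, 12 cells (0.348%) had reads of at least 3 of 7 genes of connective tissue, *Col1a1*, *Col3a1*, *Dcn*, *Col6a1*, *Lum*, *Postn*, and *Pdgfrb*, a group chosen after the values were seen. They held 94.7% of the *Col1a1* reads and 96.6% of the *Col3a1* reads of the line. *Col1a1* was at 8895 RPM in these cells and 1.88 without them. Since the cells were picked by reads of these genes, such values follow in part from the rule. *Col1a1* was captured in 6 of the 12 cells, and 1 CN4 cell held 368 of its 812 reads. The 12 cells had a median of 8784.5 reads, *Sox2* was captured in 1 of them and *Ptn* in 11, and 0 shared a cell barcode with the normalized table of another line. Cells outside those tables were not compared. The 12 cells held 34.5% of the *Ccl2* reads of CN4, a gene that was lower in CN4 than in each other line.

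*Shh*, the signal of the floor plate, was captured in 55 CN4 cells, a group also chosen after the values were seen. The shares of this paragraph are over all CN4 cells without thinning, so they cannot be set beside the shares given above. *Foxa2*, a factor of the same cells, was captured in 52.7% of them (38.8% to 66.3%) and in 4.13% of the other 3393 cells (3.48% to 4.85%). *Spon1*, which floor plate cells secrete, was captured in 94.5% and 67.3%. *Olig2* was captured in 76.4% and 84.97%, and *Sox2* in 85.5% and 83.9%. The cells with *Shh* had a median of 7822 reads and the others of 6543, and the part of depth in these shares was not tested.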
